A study of Mus musculus with 6 samples.

Results

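The miR-34 family consists of miR-34a, made from its own transcript, and miR-34b and miR-34c, made together from another. The tumour suppressor p53 induces both transcripts after DNA damage, and the mature miRNAs repress cell cycle and survival genes such as Cdk6, Myc, Met and Bcl2. In neuroblastoma, miR-34a is known as a candidate tumour suppressor, and miR-34b and miR-34c are otherwise best known from testis and from ciliated epithelium. Members were chosen by name: every entry with a mouse miRNA name was kept if its base name was mmu-miR-34a, mmu-miR-34b or mmu-miR-34c (mmu stands for mouse), whatever its arm or length variant. One entry met this rule, miR-34c-5p, which is 1 of 1080 entries and 1 of the 754 with a mouse name. Entries for mouse miR-34a, mouse miR-34b and the 3p arm of miR-34c were not analysed here.

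The libraries came from the mouse neuroblastoma line N2A (Neuro2A), which the labels call neuroblasts of the brain. In 3 libraries the cells had received a control siRNA (si-NC) and in 3 an siRNA against the circular RNA circCpsf6 (si-circCpsf6), each at 100 nM in a lipid reagent. No genetic change or further treatment is given for either group. The level of circCpsf6, the activity of p53 and the targets of miR-34 were not analysed here. Nothing in the labels says that replicates were separate cultures, so the p-values cover only the spread seen here, part or all of which may be technical. The values are the authors' normalized read numbers, rounded to whole numbers, and summed to between 2570449 and 3268351 per library. Read depth is unknown, so no counting intervals are given.

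miRNAs recognise their targets mainly through the seed, bases 2 to 8 from the 5′ end. The sequences below show how the miR-34 family is defined and which other miRNAs could share its targets. Each is the mature mouse sequence from RefSeq (GRCm38.p6), with the seed in capitals. Of 6 names looked up, 4 matched, and miR-34c-5p and miR-449b-5p are named only.
miR-34a-5p: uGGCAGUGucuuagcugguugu
miR-34b-5p: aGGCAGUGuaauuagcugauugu
miR-449a-5p: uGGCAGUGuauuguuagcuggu
miR-449c-5p: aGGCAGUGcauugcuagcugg
All 4 carried the seed GGCAGUG, which was present in 4 of the 1674 distinct mature mouse sequences available (0.239%). That count leaves out miR-34c-5p and miR-449b-5p, whose sequences were not found and whose seeds were not checked here. Compared base by base from the 5′ end without gaps, miR-34a-5p and miR-34b-5p were the same at 11 of 22 positions. miR-34a-5p and miR-449a-5p were the same at 15 of 22. As miR-34b-5p has 23 bases and the other 2 have 22, bases behind the seed can be out of step. These counts therefore do not rank how alike the sequences are. By the seed alone, the group crosses the family names, with miR-449, a miRNA of ciliated epithelium, sharing the seed of miR-34.

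The miR-34c hairpin lies on chromosome 9 at 51103034 to 51103110, on the minus strand (GENCODE, GRCm38). The miR-34b hairpin lies 451 bases away at 51103562 to 51103645 on the same strand, upstream in the direction of transcription. Both lie within an intron of Btg4, a gene of oocyte maturation and early embryos that is transcribed from the opposite strand. The miR-34a hairpin lies on chromosome 4 at 150068454 to 150068555 on the plus strand, and its last 17 of 102 bases overlap an exon of the unclassified transcript Gm37795, which starts at 150068539. These positions come from hairpin names and are not on the build named by the submitters.

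miR-34c-5p was a low-level miRNA in these cells. The si-NC libraries held 19, 32 and 0 normalized reads (replicates 1, 2 and 3), and the si-circCpsf6 libraries held 13, 29 and 19. The si-NC libraries thus held both its highest and its lowest value, and all 3 si-circCpsf6 values lay between them. Per 1000000 of each library's summed values, the si-NC levels were 6.24, 10.9 and 0, and those of si-circCpsf6 were 4.52, 8.87 and 6.60. Its mean over the 6 libraries, 18.7, ranked 479th among 740 mouse-named entries after identical copies were merged, and 35.3% of those entries had a lower mean. The median of their means was 72.2. The entry carried no variant suffix in its name.

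**Figure D1:**
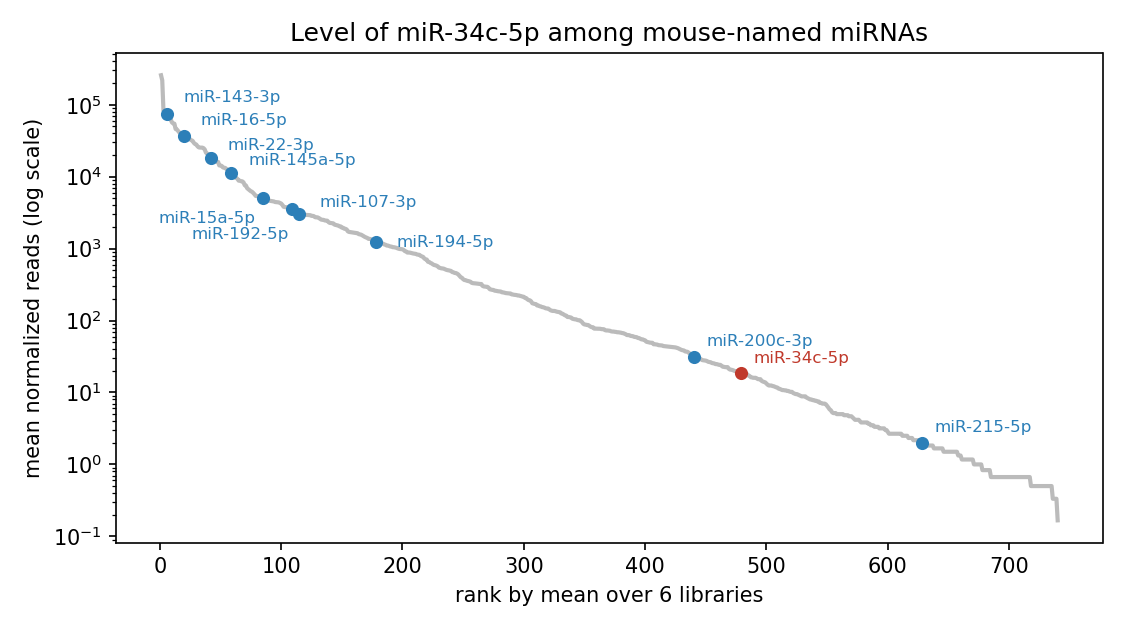
Mean normalized reads over the 6 libraries (vertical axis, log scale) against rank for 740 mouse-named entries (grey line), with miR-34c-5p in red and 10 other miRNAs linked to p53 in blue. miR-34c-5p stands at rank 479 with a mean of 18.7, between miR-200c-3p (31.5) and miR-215-5p (2.00).

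Rows for the mouse names miR-449a, miR-449b and miR-449c were not analysed here. An entry named after the opossum miR-34b-5p, which the rule on mouse names leaves out, was listed at 2 in si-circCpsf6 replicate 1 and at 0 in the other libraries. With 1 value of 2 it gives no comparison between the groups. As only 1 arm of 1 hairpin was available, neither the ratio of 3p to 5p nor that of miR-34b to miR-34c could be computed, and the summed value of the family equals that of miR-34c-5p.

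miR-34c-5p did not differ between the groups beyond the spread of the libraries. The si-NC mean was 17 ± 16.1 and the si-circCpsf6 mean 20.3 ± 8.08 (SD, n = 3 each), a difference of 3.33 normalized reads and a ratio of 1.20. On the log2(value + 1) scale the means were 3.12 and 4.35, a log2 change of 1.22 (SE 1.35, 95% confidence interval -1.87 to 4.32, adjusted p = 0.904 by limma). A two-sided exact permutation test of the log2 values gave p = 0.9, where 3 libraries against 3 can give no p below 0.1. The authors' deposited table lists the same comparison as a fold change of 1.21 (log2 0.27) with an unadjusted p of 0.759. By limma, 0 of 916 tested entries had an adjusted p under 0.05 (0% called, lowest adjusted p 0.0923), and 57 had an unadjusted p under 0.05 (6.22%). miR-34c-5p was in neither count. The interval is wide, from a fall of several fold to a much larger rise, so equal levels are not shown either.

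The direction of that difference rested on single libraries, above all on si-NC replicate 3. Without this library the mean of the remaining si-NC libraries was 25.5, the ratio of group means was 0.797 and the log2 change was -0.34 (SE 0.55, 95% confidence interval -1.73 to 1.05, adjusted p = 0.759 by limma). miR-34c-5p was then lower in si-circCpsf6, again within the spread. Without si-NC replicate 2, where it was highest, the ratio was 2.14 and the log2 change 2.18 (adjusted p = 0.879 by limma). Leaving out si-NC replicate 1 gave a log2 change of 1.82, and leaving out si-circCpsf6 replicates 1, 2 and 3 gave 1.49, 0.94 and 1.24. The ratio of group means also fell below 1 without si-circCpsf6 replicate 2, where it was 0.941. The pseudocount alone moved the log2 change from 0.58 at 5 to 2.30 at 0.1, since it sets what a listed 0 is worth. With values under 20 raised to 20 in every library, the log2 change was -0.046.

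In si-NC replicate 3 the low values that were common in the other libraries were rare. The most frequent value above 0 there was 19, held by 34 entries, and only 16 of its 578 entries above 0 were lower, down to 2. In the other libraries the most frequent value above 0 was 3, 5, 4, 4 and 6. None of its entries lay between 15 and 18, against 18 to 32 entries in each of the others. The level of miR-34c-5p elsewhere, 13 to 32, therefore straddled the lowest value that was common in this library. Of the 179 entries whose mean over the other 5 libraries was 10 to 50, as for miR-34c-5p, 97 were listed at 0 in si-NC replicate 3 (54.2%). The corresponding shares were 5.14% and 6.98% in si-NC replicates 1 and 2 and 3.59%, 5.95% and 14.3% in si-circCpsf6 replicates 1, 2 and 3. Most entries of its level thus shared the 0 of miR-34c-5p in this library. What a listed 0 stands for there was not tested.

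**Figure D2:**
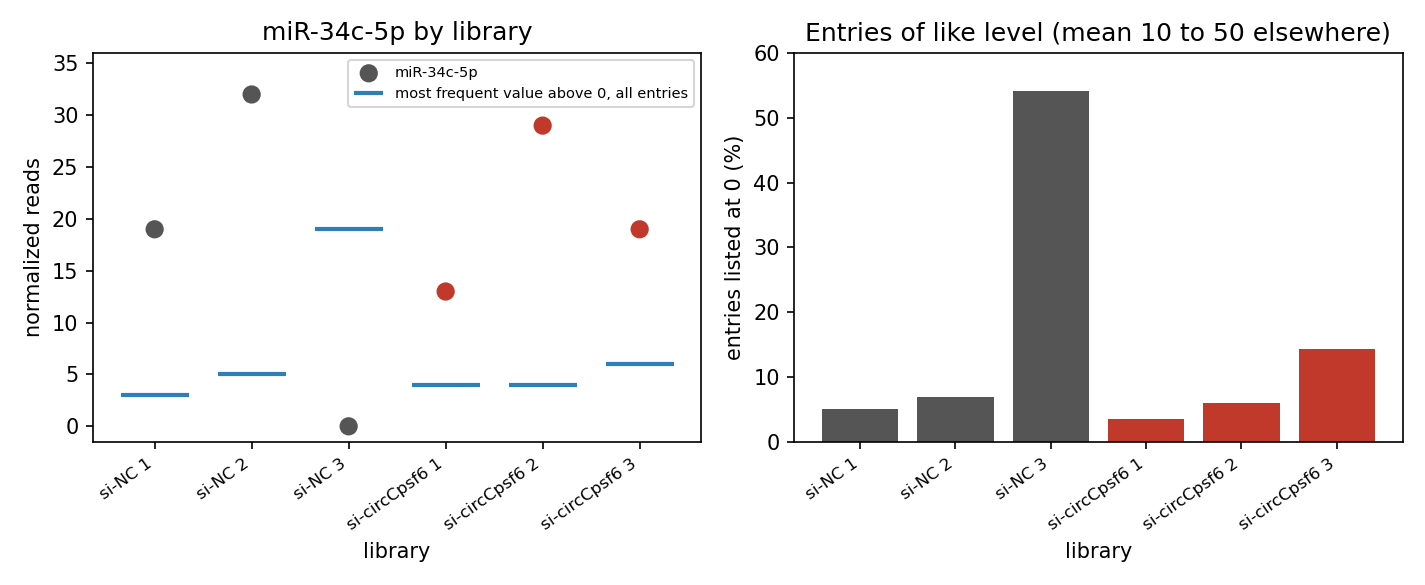
Left, normalized reads of miR-34c-5p (points) in the si-NC (grey) and si-circCpsf6 (red) libraries, with the most frequent value above 0 over all entries of that library (blue line). Right, the percent of entries listed at 0 in each library among those with a mean of 10 to 50 over the other 5; it is 54.2% in si-NC replicate 3, where miR-34c-5p is also at 0 and the blue line at 19, and 3.59% to 14.3% elsewhere.

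Entries of the same level depended on si-NC replicate 3 in the same direction as miR-34c-5p. Among 176 tested entries with a mean of 10 to 50, the median log2 change was 0.57 and 113 were higher in si-circCpsf6 (64.2%, against 55.7% of all 916). Without si-NC replicate 3 the median of those entries was -0.091 and 85 were higher (48.3%). Among 201 entries with a mean of 1000 or more, the median was 0.058 with all libraries and 0.061 without that one. The median standard error was 1.22 in the lower range and 0.33 in the higher one, so the 1.35 of miR-34c-5p was close to that of entries of its own level. A log2 change of at least its size was found in 33.5% of entries in the lower range and in 3.48% of those in the higher range.

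**Figure D3:**
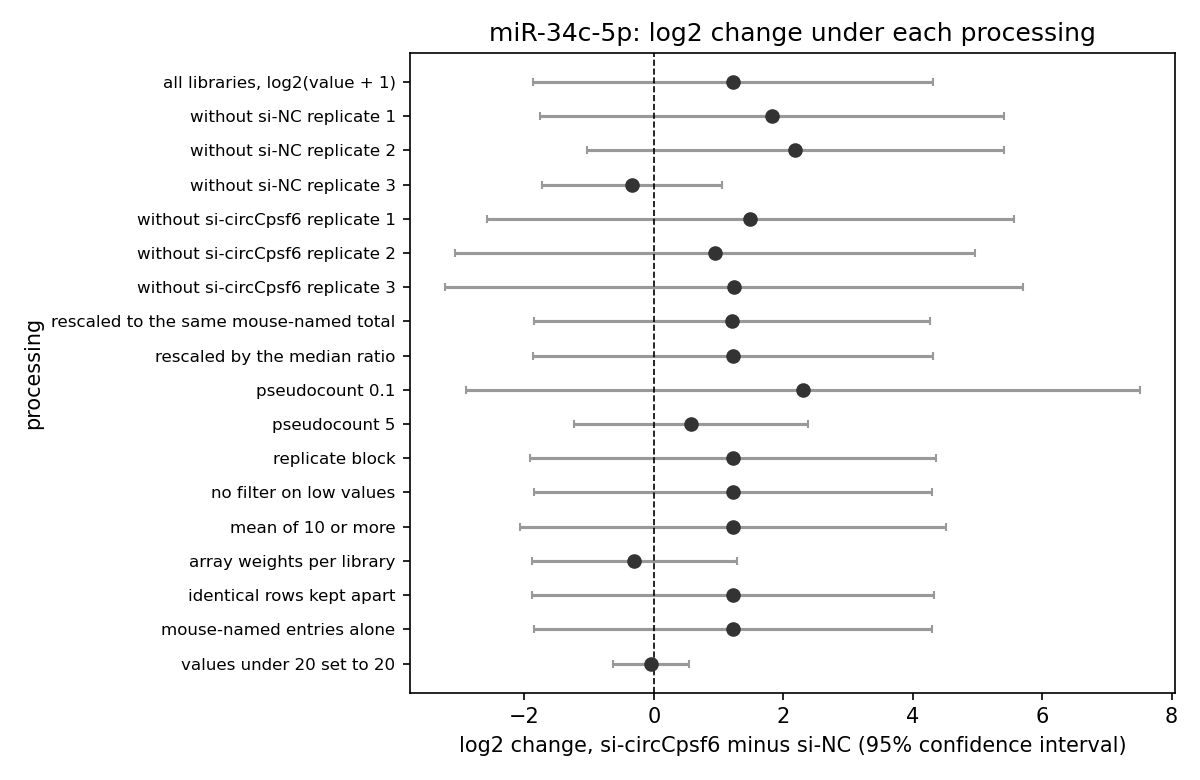
Log2 change of miR-34c-5p (points, horizontal axis) with its 95% confidence interval from limma, for all libraries and for each of 17 other ways of processing. Every interval spans 0; the point is above 0 in 14 of the 17 and below 0 in 3, without si-NC replicate 3 (-0.34), with array weights per library (-0.30) and with values under 20 set to 20 (-0.046).

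Profiles similar to that of miR-34c-5p were looked for next. They were compared as the root-mean-square difference of log2(value + 1), each centred on its own mean over the 6 libraries, among 622 entries with a mean of 10 or more. The closest was a length variant of miR-1843b-3p, at a difference of 0.20, against a median of 1.70 over all 622. Its si-NC values were 24, 34 and 0, and its si-circCpsf6 values 17, 25 and 19. For an entry named after the chimpanzee miR-1322 (difference 0.33) they were 16, 27 and 0, then 6, 21 and 18. For a miR-704 variant (0.35) they were 11, 14 and 0, then 9, 20 and 10. The 0 in si-NC replicate 3 weighs most in this measure, so that close entries have to share it and be low.

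Other miRNAs linked to p53, either induced by it or processed with its help, were all listed, and most were far more abundant than miR-34c-5p. By limma 0 of the 10 passed in either direction (0% of all entries). The log2 change was above 0 for 7 of the 10 and below 0 for 3, where 55.7% of all 916 entries were above 0. With equal mouse-named totals it was 5 and 5. The median log2 change of the 10 was 0.077 (-0.0036 with equal totals), against 0.086 for all 916 entries. The groups were separate, with no overlap of their values, for 4 of the 10, against 11.7% of all tested entries. The most abundant was miR-143-3p, a smooth muscle and fibroblast miRNA, with a log2 change of 0.16 (SE 0.29). The growth-restraining miR-16-5p had si-NC values of 26998, 21252 and 67301 and si-circCpsf6 values of 36038, 26335 and 45178, a log2 change of 0.050. Its highest value was in si-NC replicate 3, the library in which miR-34c-5p was at 0, as was that of miR-15a-5p (13188). Lowest in that library were miR-143-3p, miR-145a-5p and miR-107-3p (57213, 7067 and 2742). miR-22-3p, a broadly expressed miRNA, had a log2 change of 0.016, and miR-145a-5p, made from the same transcript as miR-143, one of 0.38. The changes of miR-143, miR-16 and miR-22 took the other sign under some processing.

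The 4 without overlap were picked out after their values were seen. miR-192-5p, an epithelial miRNA of gut, kidney and liver reported to act downstream of p53, had si-NC values of 3753, 6565 and 2370 and si-circCpsf6 values of 1513, 2338 and 1613 (log2 change -1.12, SE 0.40, adjusted p = 0.553 by limma). Its lowest si-NC value and highest si-circCpsf6 value were close together. With array weights, where 31 of 916 entries passed, its adjusted p by limma was 0.0222. It did not pass under the other 16 alternatives. miR-194-5p, made with miR-192 from one transcript, had si-NC values of 1158, 2105 and 1550 and si-circCpsf6 values of 838, 968 and 685 (-0.92). miR-200c-3p, which keeps cells epithelial by repressing Zeb1, had 30, 87 and 39, then 10, 16 and 7 (-2.06). miR-107-3p was the one with higher values in si-circCpsf6, having 3046, 3131 and 2742, then 4168, 3646 and 4355 (0.45). It is nearly identical to miR-103, and how reads were split between them is not given. For miR-34c-5p the groups did overlap.

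**Figure D4:**
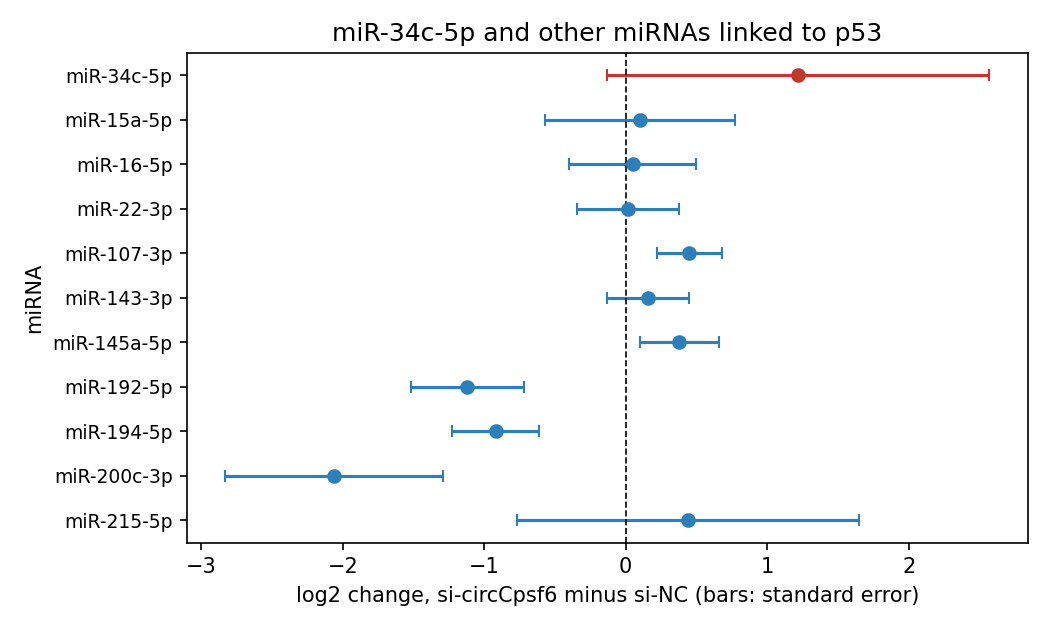
Log2 change between the groups (horizontal axis, bars are standard errors from limma) for miR-34c-5p (red) and 10 other miRNAs linked to p53 (blue). miR-192-5p (-1.12), miR-194-5p (-0.92) and miR-200c-3p (-2.06) lie below 0, and miR-34c-5p (1.22) has the longest bar (SE 1.35); none passed the test.

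Members of the growth-promoting miR-17-92 cluster, which p53 is known to restrain, were listed for 6 of 6 names. None passed by limma (0% of all entries). The log2 change was above 0 for 5 and below 0 for 1, where 55.7% of all 916 tested entries were above 0. It was 4 and 2 with equal mouse-named totals, and 6 and 0 without si-NC replicate 3. The groups overlapped for all 6, and only 11.7% of all tested entries had no overlap. As members of 1 cluster, the 6 do not count as independent. Their median log2 change was 0.23, against 0.086 for all tested entries, and without si-NC replicate 3 it was 0.53, against -0.064. Their si-NC sums were 91006, 101189 and 116177, and their si-circCpsf6 sums 121676, 147472 and 104639.

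The cell type label was checked against miRNAs known from particular tissues. Testis was not among these lists, though miR-741-3p and miR-881-3p, known from testis, had means of 83104 and 77434 over the 6 libraries. They ranked 3rd and 4th among mouse-named entries. All 8 neuronal and neuroendocrine miRNAs looked for were listed, summing to 180697 to 495121 per library. Much of each sum was miR-7a-5p (88548 to 364458), while miR-124-3p and miR-9-5p had means of only 393 and 148 over the 6 libraries. The sum was lowest in si-NC replicate 3, as were miR-7a-5p and miR-7b-5p, but miR-218-5p was highest there (35424). Of 5 blood miRNAs 3 were listed, summing to 13 to 46, and the liver miRNA miR-122-5p was listed at 5 in si-NC replicate 2 and at 0 elsewhere. Of 3 striated muscle miRNAs 2 were listed, summing to 43 to 132. The si-NC sums of the 5 epithelial miRNAs were 197, 431 and 151, and their si-circCpsf6 sums 62, 34 and 7. miR-34b and miR-34c are also miRNAs of ciliated epithelium. The values of miR-34c-5p, 19, 32 and 0 (si-NC) and 13, 29 and 19 (si-circCpsf6), can be set beside these sums. Within si-NC their order was that of the epithelial sums, and within si-circCpsf6 it was not. The lowest si-NC value of miR-34c-5p was the 0 in replicate 3, where 54.2% of entries of like level were at 0. An order of 3 values that rests on such a 0 cannot tell where miR-34c-5p came from. The 5 epithelial miRNAs were also not chosen as markers of ciliated cells. The part of other cells in the level of miR-34c-5p was not tested.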

How the data were processed

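Small RNA of N2A cells was sequenced from TruSeq small RNA libraries, per the labels' protocols, and samples were grouped by their titles. The submitters' processing notes name the genome build mm9. Aligner, counting method, normalization and miRNA release: not given in the sources used here. Each deposited value is a normalized read number per entry, in whole numbers per the file headers, and was handled as a score. The authors' deposited table also holds a ratio of group means (fold change), the log2 of it and a p-value, used only where credited.

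Members and lists were chosen with earlier results of these data known. Copies were merged, that is, rows equal to an earlier row and either above 0 in at least 3 libraries or with an equal name before any variant suffix, leaving 1046 of 1080. Entries with a mean of 1 or more (916) were tested with limma 3.58.1 (R 4.3.3, trended variance) on log2(value + 1), with group alone in the model and p-values adjusted over all entries by Benjamini-Hochberg (threshold 0.05). This replaced the count test, since the values are not counts. The limma step was tested on simulated data with values drawn independently for each entry and library. No simulated library was given extra values of 0 as in si-NC replicate 3, so that feature was not covered. A log2 change on this scale can understate or exceed that of the group means where values are near 0. Every member is named, with the 4 most abundant p53-linked miRNAs (each as its most abundant entry) and the 3 entries of most similar profile. Outside this rule, the 4 p53-linked miRNAs whose groups did not overlap were named after their values were seen. The remaining p53-linked miRNAs, miR-15a and miR-215, are named where their values are compared or where the processing changed their sign. The miR-17-92 and tissue lists are given by counts and sums, with some tissue miRNAs also named. Exact permutation tests used scipy 1.17.1. Alternatives were other pseudocounts (0.1 and 5), filters and scalings, each library left out, a replicate block, array weights, copies kept apart, mouse-named entries alone and, added after seeing the data, values under 20 set to 20.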

Additional observations from a re-analysis of the deposited data

How the results depend on the processing

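The difference of miR-34c-5p did not pass the limma test under any of the 17 alternatives (adjusted p 0.691 to 0.979), and its log2 change of 1.22 changed sign in 3: -0.34 without si-NC replicate 3, -0.30 with array weights per library and -0.046 with values under 20 set to 20, the last chosen after seeing the data. With 1 library left out it ran from -0.34 to 2.18, and the ratio of group means (1.20) from 0.797 to 2.14. Across all entries, 0 passed with all libraries and 0 to 4 with 1 library left out, the 4 being without si-NC replicate 3. With array weights 31 passed. Those weights were 0.146 for si-NC replicate 3 and 0.805 to 2.95 for the others. Among the p53-linked miRNAs, the log2 change ran through 0 with 1 library left out for miR-16 (-0.28 to 0.55; -0.11 without si-NC replicate 1 and -0.13 without si-circCpsf6 replicate 3), miR-22 (-0.22 to 0.34; -0.19 without si-NC replicate 1 and -0.071 without si-circCpsf6 replicate 1) and miR-15a (-0.40 to 0.98; -0.26 without si-NC replicate 2 and -0.067 without si-circCpsf6 replicate 3). It also took the other sign with array weights for miR-143 (-0.013) and miR-215 (-0.55), with equal mouse-named totals for miR-16 (-0.031) and miR-22 (-0.065), and with median-ratio scaling for miR-22 (-0.0011). The cause of these changes was not tested.

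With the replicate number as a block, the log2 change of miR-34c-5p was 1.22 (adjusted p = 0.691 by limma) and 0 entries passed. By limma, 87 entries then had an unadjusted p under 0.05, against 57 without the block. Same-numbered libraries deviated together with correlations of 0.047, 0.479 and 0.400 for numbers 1, 2 and 3. Numbers 2 and 3 thus correlated best with their own number. Crossed, si-NC replicate 2 with si-circCpsf6 replicate 3 gave -0.399, and si-NC replicate 3 with si-circCpsf6 replicate 2 gave -0.441. For si-NC replicate 1 the best was si-circCpsf6 replicate 2 (0.184). The labels give no pairing, so the main test used none, and a batch shared by number was not tested. The alternatives planned for the 3p to 5p ratio gave no value, since 1 arm was analysed. Read depth is unknown, and values near the lowest common value of a library limit what can be compared for miR-34c-5p.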
